A study of Homo sapiens with 12 samples.

Results

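A set of 10 genes of the YAP and TAZ transcription module were followed through 12 RNA-seq libraries of human triple-negative breast cancer (TNBC) cells. They comprise the coactivator genes YAP1 and WWTR1 (which encodes TAZ), the gene of their DNA-binding partner TEAD1, and 7 genes that YAP and TAZ are known to activate, CYR61 (CCN1), CTGF (CCN2), ANKRD1, AMOTL2, AJUBA, LATS2 and AXL. The members were taken by symbol from a list chosen with earlier results of these data known, and each of the 10 had 1 row in every table, out of 16491 rows for HCC70, 18217 for the XY018 and ATV treatments of MDA-MB468 and 57909 for the GSK805 treatment of MDA-MB468. HCC70 and MDA-MB468 are established TNBC cell lines. Cells of both lines received vehicle, XY018 at 1.25 or 2.5 μM, 1.25 μM of atorvastatin (ATV), or both compounds at 1.25 μM each, and MDA-MB468 cells additionally received a separate vehicle or GSK805 at 2.5 μM, all for 24 h. XY018 and GSK805 are small-molecule antagonists, and ATV is a statin, an inhibitor of HMG-CoA reductase. The labels list insulin in the medium of MDA-MB468 and not in that of HCC70, while the study's methods name DMEM for MDA-MB468 and RPMI1640 for HCC70, so by either source the line and the medium cannot be told apart.

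YAP and TAZ are transcriptional coactivators that shuttle between cytoplasm and nucleus. When the Hippo kinases are active, LATS1 and LATS2 phosphorylate them and they are held in the cytoplasm or degraded. When the kinases are quiet, YAP and TAZ enter the nucleus, bind the TEAD factors and switch on genes for matricellular proteins, cytoskeletal regulators and growth. Several of these targets, among them LATS2, AMOTL2 and AJUBA, encode regulators of the pathway itself. In breast cancer cells high YAP and TAZ activity is associated with growth and invasion, and blocking the mevalonate pathway with statins is known to keep both proteins out of the nucleus. RNA levels do not report where the proteins are, and protein or localization data were not analysed here.

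Levels are given as FPKM, the fragments of a gene scaled by the length of its transcript and by the size of the library, so that genes can be compared within a library. The 3 tables were normalized separately, and levels from different tables are only set side by side. A change is given as the log2 of treated over vehicle FPKM within a table, with 0.1 FPKM added to both. Genes under 1 FPKM in both libraries were not compared, and lower or higher refers to a change of 1.5-fold (0.585 on the log2 scale) or more. Every condition had 1 library, so no difference has a replicate check, no p-value is given and the 95% intervals below (exact Clopper-Pearson) cover counting error only. The depth, estimated from the spacing of low FPKM values, was 9140000 to 10010000 fragments per HCC70 library, 17560000 to 19920000 per MDA-MB468 library with XY018 or ATV, and 8390000 and 8660000 in the GSK805 pair. All 7 basal and epithelial markers (KRT5, KRT6B, KRT14, KRT17, EPCAM, CDH1 and EGFR) reached 1 FPKM in each table, and their summed level lay between 877 and 1623 FPKM. Of 5 fibroblast markers only COL1A1 reached 1 FPKM, the summed level of those listed was 3.86 to 5.73 FPKM in HCC70, 5.22 to 8.65 FPKM in the MDA-MB468 XY018 and ATV libraries and 11.1 to 17.8 FPKM in the GSK805 pair, and COL3A1 was at 0 in every HCC70 library. Of the immune markers CD3E did not exceed 0.14 FPKM and PTPRC 1.06 FPKM, while CD68 was at 76.5 to 98.8 FPKM in HCC70, 3.83 to 16.4 FPKM in the XY018 and ATV libraries of MDA-MB468 and 5.54 to 12.4 FPKM in the GSK805 pair. Of the endothelial markers VWF stayed at or below 0.04 FPKM, and CDH5 reached 2.28 FPKM in one HCC70 library. PECAM1 was at 0.93 to 1.21 FPKM in HCC70 and 0.1 to 0.25 FPKM in the XY018 and ATV libraries of MDA-MB468. It was not listed for the GSK805 pair. All libraries are from cultured cell lines, and the source of the RNA of these markers was not tested. ESR1 was at 0.37 to 0.67 FPKM in the XY018 and ATV libraries of both lines and at 1.77 to 5.67 FPKM in the GSK805 pair. PGR was listed at 0 in all MDA-MB468 libraries, while ERBB2 was between 25.3 and 57.7 FPKM over all 12 libraries.

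TEAD factors recognise the letters GGAATG, and the RefSeq windows of the 250 bases before each start site (build GRCh38.p14) were searched for them on both strands. Windows were given for 8 of the 10 genes (12 windows in all), and not for CYR61 and TEAD1. GGAATG was found in 6 of the 12 windows, belonging to YAP1, CTGF, ANKRD1, AMOTL2, AJUBA and AXL, and in 4175 of 35116 windows over all genes (11.9%). CTGF held 3 matches and ANKRD1 2, and the other 4 genes 1 each. The windows of the 4 targets whose RNA was lower with both antagonists in MDA-MB468 (below) and for which a match was found are printed 5′ to 3′ on the strand of the gene, with the match in capitals (CATTCC is GGAATG on the opposite strand). They lie at chr6:131951373-131951622 (minus strand) for CTGF, chr10:90921088-90921337 (minus strand) for ANKRD1, chr3:134374448-134374697 (minus strand) for AMOTL2 and chr14:22976843-22977092 (minus strand) for AJUBA. For AMOTL2 and AJUBA a second annotated window held no match and is not shown.
CTGF: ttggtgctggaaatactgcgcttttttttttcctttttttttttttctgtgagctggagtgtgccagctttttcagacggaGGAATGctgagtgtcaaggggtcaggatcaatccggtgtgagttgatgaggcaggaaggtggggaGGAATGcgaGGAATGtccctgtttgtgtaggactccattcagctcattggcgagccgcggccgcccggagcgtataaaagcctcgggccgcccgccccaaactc
ANKRD1: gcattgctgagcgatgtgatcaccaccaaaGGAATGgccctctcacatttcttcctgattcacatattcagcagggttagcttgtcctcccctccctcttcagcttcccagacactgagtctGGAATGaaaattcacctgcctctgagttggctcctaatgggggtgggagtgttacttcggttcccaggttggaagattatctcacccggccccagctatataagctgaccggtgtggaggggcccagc
AMOTL2: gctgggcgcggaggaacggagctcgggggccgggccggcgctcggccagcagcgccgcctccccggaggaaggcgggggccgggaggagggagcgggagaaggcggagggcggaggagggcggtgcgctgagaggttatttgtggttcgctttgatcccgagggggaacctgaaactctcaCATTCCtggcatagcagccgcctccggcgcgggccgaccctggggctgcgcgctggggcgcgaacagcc
AJUBA: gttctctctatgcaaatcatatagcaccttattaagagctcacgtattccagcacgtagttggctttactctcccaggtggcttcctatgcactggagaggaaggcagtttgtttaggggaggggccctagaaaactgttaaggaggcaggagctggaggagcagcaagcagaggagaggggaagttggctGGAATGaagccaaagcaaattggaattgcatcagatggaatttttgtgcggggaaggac
In CTGF the matches began 169, 104 and 95 bases before the start site, and in ANKRD1 they began 220 and 128 bases before it. The single matches in AMOTL2 and AJUBA ended 64 and 54 bases before the start. The AP-1 site TGANTCA was found in 1 window, that of ANKRD1, against 6.57% of all windows, and the CArG box of SRF in none, against 1.16%. None of these motifs overlaps another in these windows, and a match is only a run of letters, with no measure of binding here.

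The order of the members by level differed between the vehicle libraries, also between those of MDA-MB468. In HCC70 the highest level was that of WWTR1 (33.1 FPKM), followed by YAP1 (26.6), AMOTL2 (25.1), CYR61 (19.8), TEAD1 (6.14), AJUBA (4.58), LATS2 (2.05), AXL (0.56), CTGF (0.13) and ANKRD1 (0.05). In vehicle-treated MDA-MB468 of the XY018 and ATV table the order was AMOTL2 (68.6 FPKM), CTGF (59.4), CYR61 (51.4), YAP1 (37.7), WWTR1 (31.0), AJUBA (15.5), TEAD1 (14.2), LATS2 (5.82), ANKRD1 (3.34) and AXL (1.51). CTGF, a secreted matricellular protein that is the most used readout of YAP and TAZ, ranked 2nd of the members in that MDA-MB468 vehicle. It ranked 5th in the vehicle of the GSK805 table, and its 0.13 FPKM in HCC70 corresponds to about 2.9 fragments. ANKRD1, a nuclear ankyrin-repeat protein first known from heart muscle, rested on about 0.9 fragments in vehicle-treated HCC70 and was listed at 0 in the 4 treated HCC70 libraries. CTGF, ANKRD1 and AXL stayed under 1 FPKM in all HCC70 libraries, so only 7 members could be compared in that line, against 10 in MDA-MB468. The vehicle library of the GSK805 table, also MDA-MB468, had WWTR1 first (103.5 FPKM), then AMOTL2 (76.0), YAP1 (46.5), CYR61 (23.2), CTGF (17.5), AJUBA (14.95), TEAD1 (11.0), LATS2 (4.38), AXL (1.61) and ANKRD1 (1.07). FPKM summed to 2456129 over 57909 rows in that library and to 429972 over 18217 rows in the other MDA-MB468 vehicle. The rows come from different annotations, so these sums give no scale factor for a single gene. With no replicate, the order of close neighbours such as YAP1 and AMOTL2 in HCC70 cannot be told from library error.

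**Figure D1:**
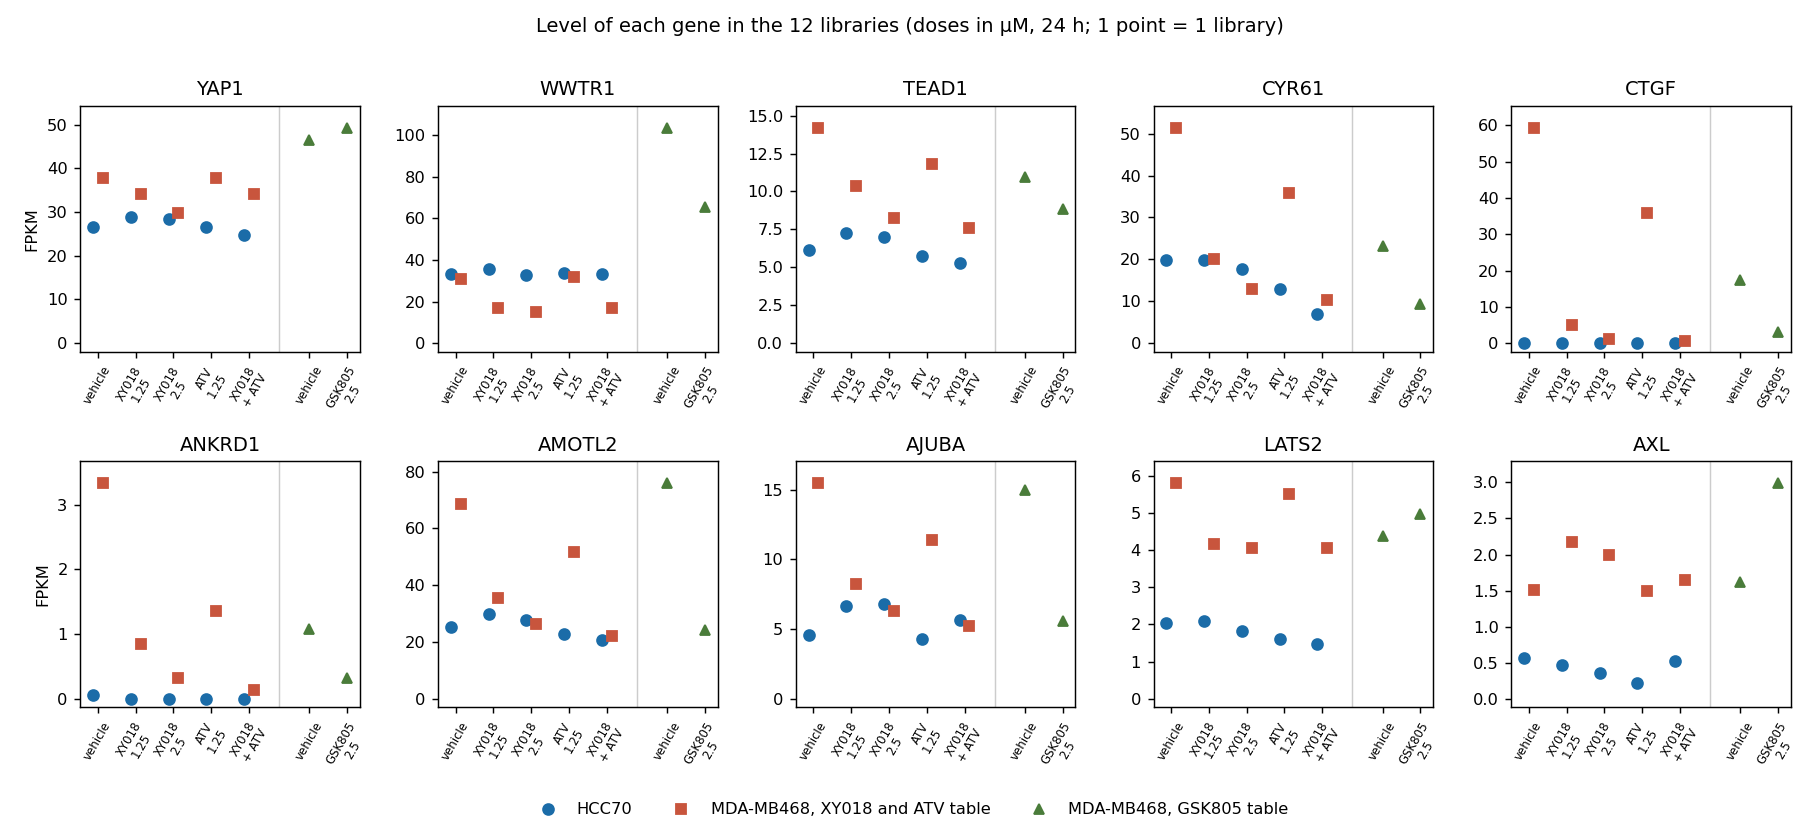
FPKM (linear axis, one scale per gene) of the 10 genes in the 12 libraries, with HCC70 as blue circles, the XY018 and ATV libraries of MDA-MB468 as red squares and the GSK805 pair as green triangles, and 1 point per library without error bars. In the XY018 and ATV libraries of MDA-MB468 CTGF went from 59.4 FPKM in vehicle to 1.06 FPKM at 2.5 μM XY018, while YAP1 stayed between 29.8 and 37.8 FPKM.

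Most targets were lower with XY018 than with vehicle in MDA-MB468 (the plot of levels by library). At 1.25 μM 6 of the 10 members were lower by at least 1.5-fold and none was higher, against 8.38% lower and 9.73% higher of the 11844 genes compared. At 2.5 μM 7 of the 10 were lower and none was higher, against 14.5% lower and 14.1% higher of 11919 genes. The median log2 ratio of the members was −0.89 at 1.25 μM and −1.16 at 2.5 μM, where the median of all genes compared was 0.01 and 0.00. The members lower at 2.5 μM were WWTR1, TEAD1, CYR61, CTGF, ANKRD1, AMOTL2 and AJUBA, and those past 1.5-fold at neither dose were YAP1, LATS2 and AXL.

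CTGF had the lowest log2 ratio of the members at both doses, followed by ANKRD1 and CYR61. CTGF (chr6:132269316-132272512, minus strand, GRCh37) was at 59.4 FPKM with vehicle, 4.94 at 1.25 μM XY018 and 1.06 at 2.5 μM. Its level fell 12.0-fold and then 56.1-fold below vehicle, with log2 ratios of −3.56 (−3.76 to −3.37) and −5.68 (−6.08 to −5.27), and at 2.5 μM it had the lowest log2 ratio of all 11919 genes compared. About 43.5 fragments were left at 2.5 μM out of about 2712 with vehicle. CYR61 (chr1:86046444-86050272, plus strand), which encodes the related secreted protein CCN1, was at 51.4 FPKM with vehicle, 20.02 at 1.25 μM and 12.98 at 2.5 μM. Its log2 ratios were −1.36 (−1.47 to −1.25) and −1.98 (−2.12 to −1.84), a 3.96-fold lower level at the higher dose. ANKRD1 (chr10:92671853-92680844, minus strand) was at 3.34, 0.85 and 0.32 FPKM in the same order. Its log2 ratios of −1.86 (−2.42 to −1.31) and −3.03 (−3.79 to −2.28) rest on about 116 fragments with vehicle, 29.1 at 1.25 μM and 10.1 at 2.5 μM.

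Between the doses, 2.5 against 1.25 μM XY018, 2 of the 9 members compared in MDA-MB468 were lower by at least 1.5-fold and none higher. Of all 11774 genes compared 1.73% were lower and 1.03% higher. The lower members were CTGF, at −2.12 (−2.56 to −1.67), and CYR61, at −0.62 (−0.78 to −0.46). The intervals of LATS2 (−0.23 to 0.16) and AXL (−0.41 to 0.17) hold 0. ANKRD1 was under 1 FPKM at both doses and was not compared. In HCC70 none of the 7 members compared was lower or higher by 1.5-fold between the doses, against 1.36% lower and 1.17% higher of 11684 genes, and the log2 ratios ran from −0.20 to 0.03.

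Of the other targets, AMOTL2 and AJUBA were lower by smaller factors with XY018 in MDA-MB468, while LATS2 and AXL stayed inside 1.5-fold. AMOTL2 (chr3:134074189-134094321, minus strand), an angiomotin family scaffold that binds YAP at cell junctions, was at 68.6 FPKM with vehicle, 35.5 at 1.25 μM and 26.4 at 2.5 μM XY018. The log2 ratios were −0.95 (−1.01 to −0.89) and −1.37 (−1.44 to −1.30). AJUBA (chr14:23440386-23451760, minus strand), a LIM-domain protein that restrains the LATS kinases, was at 15.5, 8.24 and 6.31 FPKM. Its log2 ratios were −0.90 (−1.04 to −0.77) and −1.28 (−1.43 to −1.13). LATS2 (chr13:21547175-21635725, minus strand), the kinase that phosphorylates YAP and TAZ and is itself a target, was at 5.82, 4.18 and 4.07 FPKM. Both LATS2 ratios stayed inside 1.5-fold, at −0.47 (−0.64 to −0.30) and −0.51 (−0.69 to −0.33). AXL (chr19:41725128-41767671, plus strand), a receptor tyrosine kinase, was at 1.51, 2.17 and 1.99 FPKM and was the one member with positive ratios, 0.50 (0.20 to 0.81) and 0.38 (0.06 to 0.70).

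The coactivator genes differed from each other. YAP1 (chr11:101981178-102104155, plus strand) was at 37.7 FPKM with vehicle, 34.0 at 1.25 μM and 29.8 at 2.5 μM XY018, so that 79.1% of its level was left at the higher dose. Its log2 ratios were −0.15 (−0.21 to −0.08) and −0.34 (−0.41 to −0.27). WWTR1 (chr3:149235022-149454501, minus strand) was at 31.0, 16.9 and 14.98 FPKM, and its log2 ratios of −0.87 (−0.96 to −0.78) and −1.04 (−1.14 to −0.95) passed 1.5-fold at both doses. TEAD1 (chr11:12695968-12966284, plus strand), one of the 4 TEAD factors that carry YAP and TAZ to DNA, was at 14.2, 10.4 and 8.22 FPKM. It passed 1.5-fold at 2.5 μM, with a log2 ratio of −0.78 (−0.88 to −0.69), and not at 1.25 μM, where the ratio was −0.45 (−0.54 to −0.37).

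**Figure D2:**
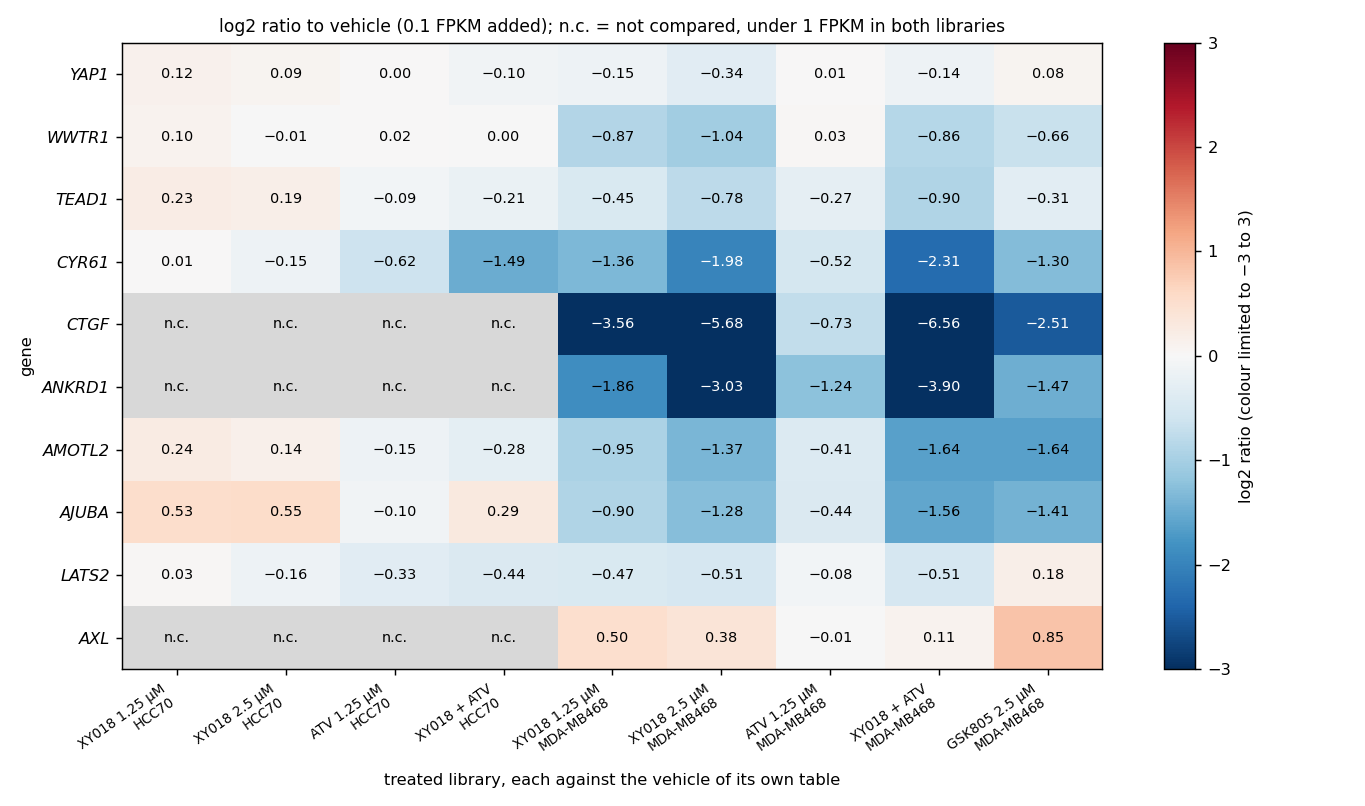
Heat map of log2 ratios to vehicle for the 10 genes (rows) and the 9 treated libraries (columns), each against the vehicle of its own table, with the value in each cell, blue for lower and red for higher. In MDA-MB468 with 2.5 μM XY018 the values run from −5.68 (CTGF) to 0.38 (AXL), and in HCC70 with the same dose from −0.16 (LATS2) to 0.55 (AJUBA). CTGF, ANKRD1 and AXL were not compared in HCC70.

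In HCC70 the 7 members that could be compared stayed inside 1.5-fold of vehicle with the same antagonist. At 1.25 μM XY018 none was lower or higher, against 2.64% of 11738 genes lower and 1.93% higher. At 2.5 μM none was lower or higher, against 3.26% of 11721 genes lower and 2.62% higher. With shares this small, none of 7 is close to what all genes gave. CYR61 was at 19.8 FPKM with vehicle, 19.9 at 1.25 μM and 17.8 at 2.5 μM. Its log2 ratios were 0.01 (−0.19 to 0.20) and −0.15 (−0.35 to 0.04), and both intervals hold 0. AJUBA had the largest ratios in this line, at 4.58, 6.64 and 6.76 FPKM, or 0.53 (0.25 to 0.81) and 0.55 (0.28 to 0.83), just inside 1.5-fold. WWTR1 was at 33.1, 35.4 and 32.7 FPKM and YAP1 at 26.6, 28.9 and 28.4 FPKM. The median of the 7 members was 0.12 at 1.25 μM and 0.09 at 2.5 μM, against −0.01 and −0.02 over all genes compared. CTGF stayed at 0.13 to 0.14 FPKM with XY018, about 3 fragments per library, so that a change of CTGF or ANKRD1 was not detectable at this depth in HCC70. AXL was at 0.56, 0.46 and 0.35 FPKM, on about 25.2, 19.7 and 16.1 fragments.

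With ATV alone, ANKRD1 and CTGF were lower in MDA-MB468 and CYR61 was lower in HCC70. In MDA-MB468 2 of the 10 members were lower by at least 1.5-fold with ATV and none was higher, against 0.803% lower and 1.37% higher of 11710 genes. ANKRD1 was at 1.36 FPKM, with a log2 ratio of −1.24 (−1.73 to −0.78) that ranked as the 12th lowest of all genes compared, and CTGF was at 35.8 FPKM, with −0.73 (−0.82 to −0.64). CYR61 (35.8 FPKM), AJUBA (11.4 FPKM) and AMOTL2 (51.8 FPKM) stayed inside 1.5-fold, with log2 ratios of −0.52 (−0.61 to −0.43), −0.44 (−0.56 to −0.32) and −0.41 (−0.46 to −0.35). YAP1 and WWTR1 were at 37.8 and 31.7 FPKM, with ratios of 0.01 (−0.06 to 0.07) and 0.03 (−0.04 to 0.10). TEAD1 was at 11.8 FPKM, at −0.27 (−0.35 to −0.19), LATS2 at 5.51 FPKM and AXL at 1.5 FPKM, with ratios of −0.08 (−0.24 to 0.08) and −0.01 (−0.33 to 0.32). In HCC70 1 of the 7 members was lower with ATV and none was higher, against 1.32% lower and 2.22% higher of 11742 genes. This was CYR61, at 12.9 FPKM and −0.62 (−0.84 to −0.41). LATS2, at 1.61 FPKM, and AMOTL2, at 22.6 FPKM, had ratios of −0.33 (−0.73 to 0.06) and −0.15 (−0.27 to −0.03), and the other 4 members compared lay between −0.10 and 0.02. AXL, under the filter, was at 0.22 FPKM with ATV, on about 10.3 fragments against 25.2 with vehicle. The medians of the members with ATV were −0.34 in MDA-MB468 and −0.10 in HCC70, against −0.01 over all genes compared in both lines.

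Within the XY018 and ATV libraries, CYR61, AMOTL2, TEAD1 and LATS2 were at their lowest levels with both compounds in each line. Of the other members compared, this held for CTGF, ANKRD1 and AJUBA in MDA-MB468 and for YAP1 in HCC70. LATS2 in MDA-MB468 was at 4.06 FPKM, against 4.07 FPKM with 2.5 μM XY018. In MDA-MB468 7 of the 10 members were lower by at least 1.5-fold and none was higher, against 12.2% lower and 13.1% higher of 11906 genes, and the median was −1.23, against 0.01 over all genes compared. CTGF was at 0.53 FPKM, about 23.9 fragments, with a log2 ratio of −6.56 (−7.08 to −6.06), again the lowest of all genes compared. ANKRD1 was at 0.13 FPKM on about 4.5 fragments, at −3.90 (−4.71 to −3.08). CYR61 was at 10.3 FPKM, at −2.31 (−2.46 to −2.17). AMOTL2 and AJUBA, at 21.9 and 5.2 FPKM, had ratios of −1.64 (−1.71 to −1.57) and −1.56 (−1.72 to −1.40). WWTR1 (17.1 FPKM) and TEAD1 (7.56 FPKM) were lower as well, at −0.86 and −0.90, while YAP1 (34.1 FPKM), LATS2 (4.06 FPKM) and AXL (1.64 FPKM) stayed inside 1.5-fold. In HCC70 1 of the 7 members was lower with both compounds and none was higher, against 2.93% lower and 4.38% higher of 11792 genes. CYR61 was at 6.99 FPKM, 35.3% of its vehicle level, and its log2 ratio of −1.49 (−1.76 to −1.23) was the 34th lowest of all genes compared. The other members lay inside 1.5-fold, with LATS2 at 1.48 FPKM (−0.44, −0.86 to −0.05), AMOTL2 at 20.6 FPKM (−0.28, −0.41 to −0.16), TEAD1 at 5.31 FPKM (−0.21, −0.38 to −0.03), YAP1 at 24.8 FPKM (−0.10), WWTR1 at 33.0 FPKM (0.00) and AJUBA at 5.61 FPKM (0.29). AXL was at 0.52 FPKM and CTGF was listed at 0, where the 2.9 fragments of the vehicle leave a change not detectable. The median of the HCC70 members with both compounds was −0.21, against −0.01 over all genes compared.

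CTGF, AMOTL2 and AJUBA in MDA-MB468 and CYR61 in both lines were lower by at least 1.5-fold with the combined treatment than with either compound alone. In MDA-MB468, both compounds against XY018 alone at 1.25 μM, 4 of 9 members compared were lower by at least 1.5-fold and none higher, against 1.76% lower and 2.1% higher of 11792 genes. These were CTGF at −3.0 (−3.54 to −2.46), CYR61 at −0.96 (−1.12 to −0.79), AMOTL2 at −0.69 (−0.77 to −0.61) and AJUBA at −0.65 (−0.83 to −0.48). YAP1 and WWTR1 were at 0.00 and 0.01 in that comparison. Against ATV alone 7 of 10 were lower and none higher, against 11.1% lower and 11.7% higher of 11886 genes. They were CTGF (−5.83), ANKRD1 (−2.67), CYR61 (−1.79), AMOTL2 (−1.23), AJUBA (−1.12), WWTR1 (−0.89) and TEAD1 (−0.63). In HCC70, both compounds against XY018 alone, 1 of 7 was lower and none higher, against 1.96% lower and 3.75% higher of 11775 genes, and this was CYR61 at −1.50 (−1.77 to −1.23). Against ATV alone CYR61 was again the 1 member lower of 7, at −0.87 (−1.16 to −0.59), and none was higher, against 2.54% lower and 2.73% higher of 11804 genes.

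The log2 ratio with both compounds was also set against the sum of the single log2 ratios. These values share libraries, and their intervals (95%, Poisson error of the 4 libraries) cover counting error only. In MDA-MB468 the combined ratio of CTGF differed from the sum by −2.27 (−2.80 to −1.74), from −3.56 for XY018 and −0.73 for ATV. For CYR61 the difference was −0.44 (−0.62 to −0.25) in MDA-MB468 and −0.88 (−1.22 to −0.54) in HCC70, where XY018 alone had left it at 0.01. For ANKRD1 the difference of −0.81 had an interval of −1.81 to 0.19, which holds 0. The interval lay below 0 for 5 of 10 members in MDA-MB468 (TEAD1, CYR61, CTGF, AMOTL2 and AJUBA) and for 4 of 7 in HCC70 (YAP1, TEAD1, CYR61 and AMOTL2), and above 0 for none in either line. Over all genes with the same ratios it lay below 0 for 18.7% and above 0 for 14.9% of 11575 genes in MDA-MB468, and for 9.75% and 8.32% of 11538 genes in HCC70. YAP1 and WWTR1 in MDA-MB468 had differences of 0.00 and −0.02.

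**Figure D3:**
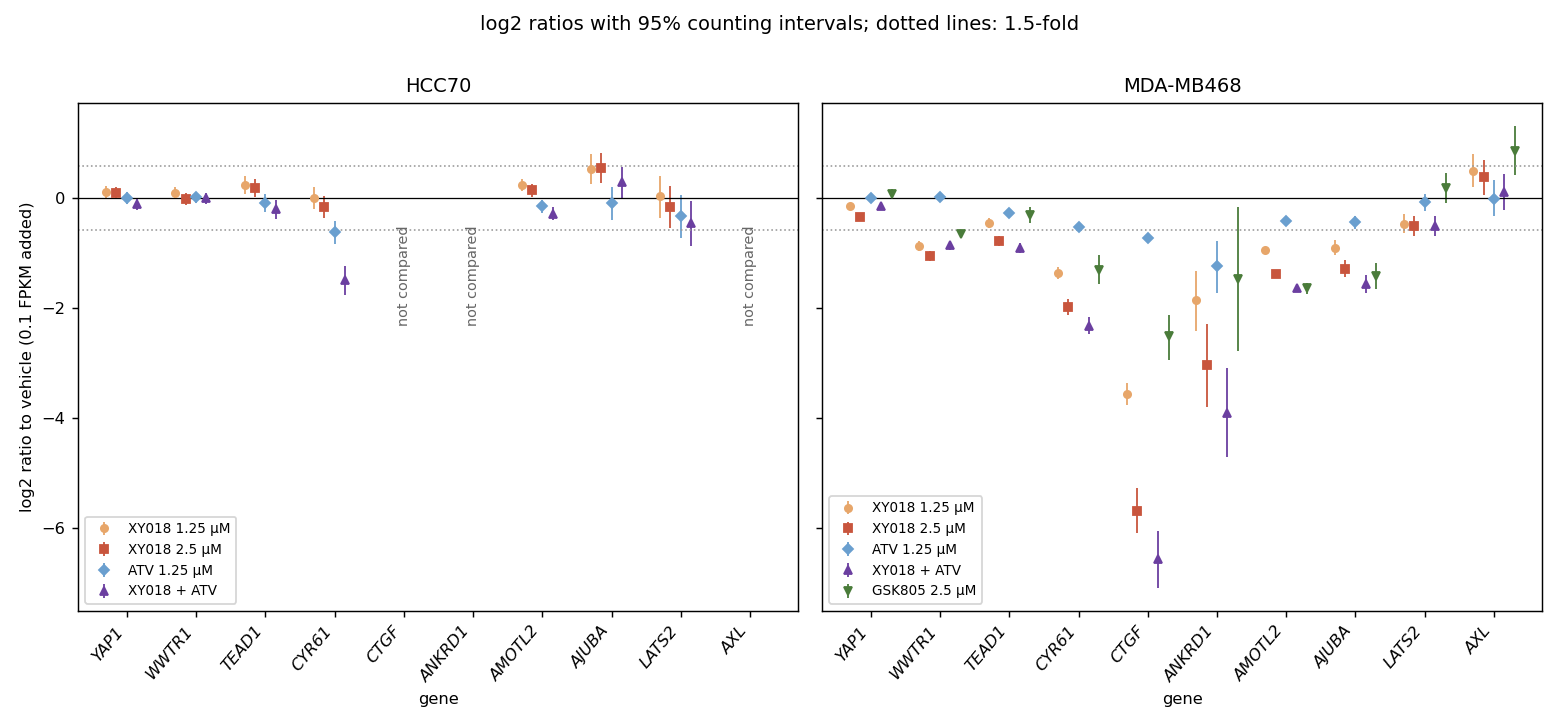
log2 ratio to vehicle (y axis, 0.1 FPKM added) of the 10 genes (x axis) in HCC70 and MDA-MB468, 1 symbol per treated library, with bars for the 95% counting interval and dotted lines at 1.5-fold. In HCC70 only CYR61 with ATV (−0.62) and with both compounds (−1.49) lies past the lower line, while in MDA-MB468 the CTGF points run down to −6.56.

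GSK805, the other antagonist, was given to MDA-MB468 at 2.5 μM, with a vehicle library of its own. With it 6 of the 10 members were lower by at least 1.5-fold, against 16.6% of 19951 genes, and 1 was higher, against 17.6%. The median of the members was −0.98, against 0.01 over all genes compared. CTGF went from 17.5 to 2.99 FPKM, a log2 ratio of −2.51 (−2.95 to −2.12). AMOTL2 went from 76.0 to 24.3 FPKM, at −1.64 (−1.74 to −1.54), and AJUBA from 14.95 to 5.56 FPKM, at −1.41 (−1.66 to −1.17). CYR61 went from 23.2 to 9.36 FPKM, at −1.30 (−1.56 to −1.04). ANKRD1 went from 1.07 to 0.32 FPKM, at −1.47 (−2.78 to −0.17), on about 14.3 and 4.4 fragments. It lies near the filter and reached 1 FPKM only in the vehicle library. WWTR1, the other coactivator gene, went from 103.5 to 65.5 FPKM, at −0.66 (−0.73 to −0.59). YAP1 was at 46.5 and 49.3 FPKM, TEAD1 at 11.0 and 8.85 FPKM and LATS2 at 4.38 and 4.99 FPKM, all inside 1.5-fold. AXL, the 1 member that was higher, went from 1.61 to 2.99 FPKM, at 0.85 (0.41 to 1.31).

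Side by side at 2.5 μM and 24 h in MDA-MB468, the XY018 and GSK805 ratios to their own vehicles were −5.68 and −2.51 for CTGF, −3.03 and −1.47 for ANKRD1, −1.98 and −1.30 for CYR61, −1.37 and −1.64 for AMOTL2 and −1.28 and −1.41 for AJUBA. They were −1.04 and −0.66 for WWTR1, −0.78 and −0.31 for TEAD1, −0.34 and 0.08 for YAP1, −0.51 and 0.18 for LATS2, and 0.38 and 0.85 for AXL. These comparisons rest on different vehicles, depths and annotations, and the difference between the compounds was not tested. CTGF was at 59.4 FPKM in one vehicle library and 17.5 FPKM in the other.

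Other genes of the pathway were read from 3 lists. Of 16 further YAP and TAZ target genes 14 could be compared with 2.5 μM XY018 in MDA-MB468, and 9 were lower and 1 was higher, against 14.5% lower and 14.1% higher of all genes, with a median of −1.02. NT5E (CD73, an ectonucleotidase) went from 56.0 to 10.7 FPKM, at −2.38. TGFB2 (a TGF-β ligand) went from 24.1 to 5.75 FPKM, at −2.05, and CCDC80 (an extracellular matrix protein) from 8.5 to 2.21 FPKM, at −1.90. The member of that list that was higher, named after its value was seen, was GADD45A, a stress-induced growth arrest gene, at 1.13. With GSK805 5 of 14 were lower and none higher, against 16.6% lower and 17.6% higher of all genes, with a median of −0.48. The lowest were F3 (tissue factor, 14.2 to 3.12 FPKM, −2.15), NT5E (73.8 to 19.6 FPKM, −1.91) and TGFB2 (27.6 to 12.6 FPKM, −1.12). In HCC70 with 2.5 μM XY018 none of 14 was lower and 2 were higher, against 3.26% lower and 2.62% higher of all genes, with a median of 0.02. The higher genes, named after their values were seen, were NT5E (0.4 to 1.25 FPKM) and NUAK2 (1.16 to 1.81 FPKM, 0.60, 0.01 to 1.18). Both lie near the filter. NT5E reached 1 FPKM only in the treated library, so it could only be counted as higher. With both compounds in HCC70 2 of 13 were lower and none higher, against 2.93% lower and 4.38% higher of all genes. They were FJX1 and TGFB2, also named after their values were seen. FJX1, near the filter and at 1 FPKM or above only with vehicle, went from 1.17 to 0.54 FPKM, at −0.99 (−1.81 to −0.07). TGFB2 went from 8.36 to 3.14 FPKM, at −1.38.

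Of 6 TEAD partners 5 could be compared with 2.5 μM XY018 in MDA-MB468, and 3 were lower and none higher, against 14.5% lower and 14.1% higher of all genes, with a median of −0.76. VGLL1, a cofactor that competes with YAP for TEAD, went from 201.4 to 44.8 FPKM, at −2.17 (−2.27 to −2.06). TEAD2 went from 65.9 to 37.1 FPKM, at −0.83, and TEAD4 from 24.7 to 14.6 FPKM, at −0.76. With GSK805 VGLL1 was the 1 gene of 6 that was lower, from 233.5 to 72.6 FPKM, at −1.68 (−1.82 to −1.55), and 1 of 6 is close to the 16.6% of all genes that were lower. None of the 5 compared in HCC70 with 2.5 μM XY018 passed 1.5-fold, close to the 3.26% lower and 2.62% higher of all genes. VGLL1 in HCC70 was at 8.77 FPKM with vehicle, 15.0 at 1.25 μM XY018, 11.2 at 2.5 μM, 5.81 with ATV and 7.02 with both compounds. It was thus higher at 1.25 μM XY018, at 0.77 (0.39 to 1.14), and lower with ATV, at −0.59 (−1.06 to −0.13).

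Of 21 Hippo kinases, scaffolds and regulators 20 could be compared in each of the 9 treated libraries. With 2.5 μM XY018 in MDA-MB468 4 of the 20 were lower and none higher, with a median of −0.22. Of all genes 14.5% were lower and 14.1% higher, and 4 of 20 is close to the share that was lower. AMOT, an angiomotin, went from 30.5 to 15.3 FPKM, at −0.99. WTIP, a LIM protein of the AJUBA family, went from 8.39 to 4.66 FPKM, at −0.83, and PTPN14, a junctional phosphatase that is also counted among the further targets, from 11.4 to 6.83 FPKM, at −0.73. The fourth, named after its value was seen, was WWC1 (KIBRA), at −0.60. None of the 20 passed 1.5-fold with GSK805, against 16.6% lower and 17.6% higher of all genes, with a median of −0.02. None did in any of the 4 treated HCC70 libraries, where 1.32% to 3.26% of all genes were lower and 1.93% to 4.38% higher. In HCC70 none of 20 is thus close to the shares of all genes. Over the 9 comparisons the median of all genes compared stayed between −0.02 and 0.01.

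**Figure D4:**
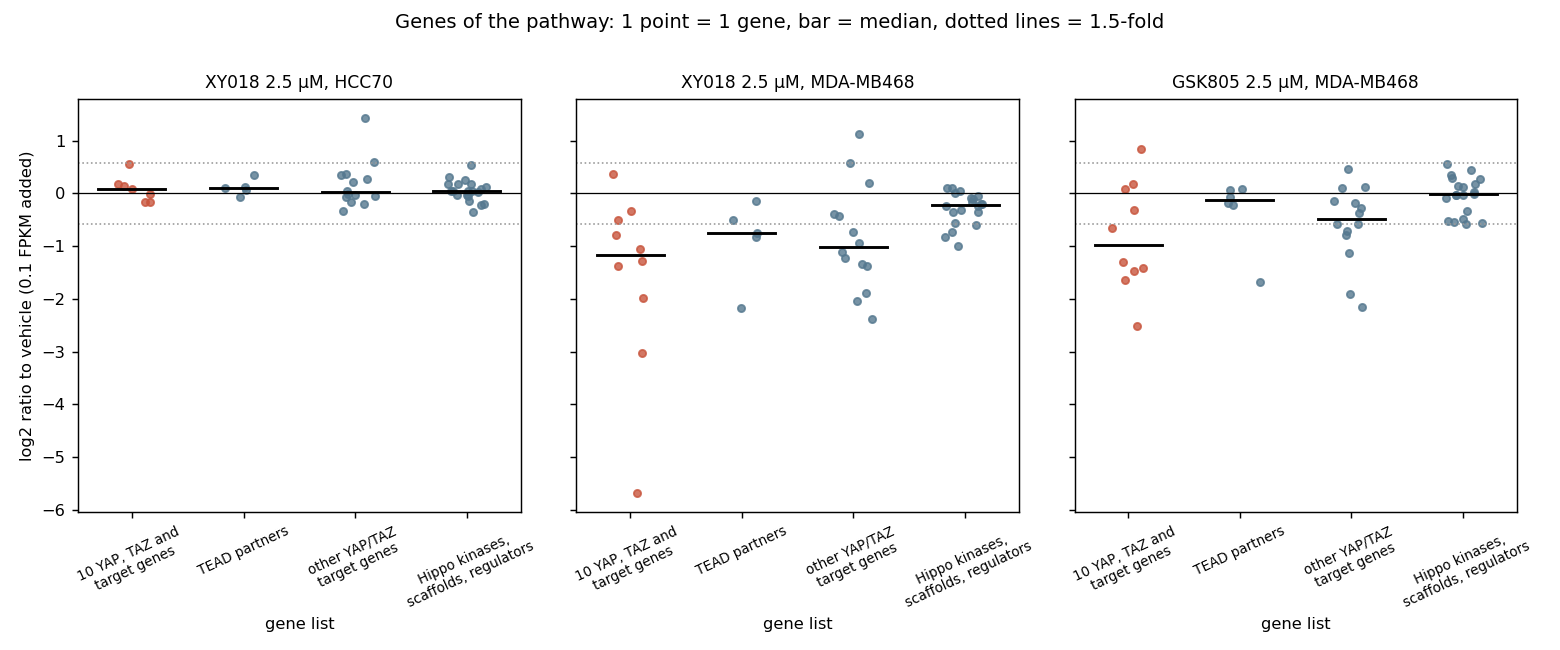
log2 ratio to vehicle (y axis) of each gene of 4 lists (x axis) for 2.5 μM XY018 in HCC70, 2.5 μM XY018 in MDA-MB468 and 2.5 μM GSK805 in MDA-MB468, 1 point per gene (spread sideways only for sight), black bars at the median and dotted lines at 1.5-fold. The medians of the 10 YAP, TAZ and target genes are 0.09, −1.16 and −0.98, those of the Hippo kinases, scaffolds and regulators 0.05, −0.22 and −0.02.

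The genes whose pattern was most like that of CYR61 and CTGF were sought among 7577 genes that reached 5 FPKM in some library of every table. The measure was Pearson's r of log2 FPKM (0.1 added), centred on the mean of each table, over the 12 libraries, which share vehicles and lines and are not independent. For CYR61 they were TGFB2 (r = 0.991), WWC1 (0.984) and PSME3 (0.977), the last a proteasome activator. Within the XY018 and ATV libraries TGFB2, like CYR61, was lowest with both compounds in each line, at 3.14 FPKM in HCC70 and 5.04 FPKM in MDA-MB468. For CTGF they were EVA1A (0.988), SLC12A2 (0.987) and CCNF (0.987), which encode an autophagy regulator, a sodium, potassium and chloride cotransporter and cyclin F. EVA1A went from 27.2 to 9.56 FPKM with both compounds in MDA-MB468, so r describes the shape of a pattern and not its size. Among the members, r with CTGF was 0.951 for ANKRD1, 0.927 for TEAD1, 0.917 for CYR61, 0.91 for WWTR1, 0.901 for AMOTL2 and 0.847 for AJUBA. It was 0.701 for LATS2, 0.661 for YAP1 and −0.40 for AXL. CTGF, ANKRD1, LATS2 and AXL themselves did not reach 5 FPKM in every table. The 5 HCC70 libraries give CTGF and ANKRD1 about 3 fragments or fewer each. Thus 5 of the 12 points behind the r values with CTGF hold levels too low for a change to be detectable.

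On GRCh37, 6 of the 10 members share exonic sequence with another annotated gene. The kit was not stated to mark strand, so reads of a gene and of its antisense partner cannot be told apart. LINC01013, on the strand opposite CTGF, was listed at 0 in both libraries of the GSK805 table, and WWTR1-AS1, opposite WWTR1, at 0.238 and 0.153 FPKM. RPL39P5, a ribosomal protein pseudogene on the strand of AMOTL2, was at 593.5 FPKM with vehicle and 601.8 FPKM with GSK805, where AMOTL2 went from 76.0 to 24.3 FPKM. How the counting divided reads between them was not tested. The overlapping genes of YAP1, AJUBA and AXL are named only by identifiers.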

How the data were processed

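RNA was taken from HCC70 and MDA-MB468 cells after 24 h of treatment, with 1 library per condition and 12 libraries in all. Per the labels, the authors prepared libraries with an Illumina TruSeq RNA kit and used a BWA, Bowtie and Cufflinks workflow on GRCh37. The deposited values are FPKM in 3 separately normalized tables. The headers name no unit, and the column sums differ between tables. Multi-mapping and strand settings are not given in the sources used here.

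From these values log2 ratios with a pseudocount of 0.1 FPKM were computed against the vehicle of the same table and counted at 1.5-fold, leaving out genes under 1 FPKM in both libraries. No test was run. Depth and fragments per gene were estimated from the spacing of low FPKM values, trying offsets up to 240 nt, and are approximate. They and the ratio step were tested on simulated data. Where a symbol had several rows, the one with the highest summed FPKM was kept. Promoter windows are from RefSeq (GRCh38.p14) and gene positions from GENCODE on GRCh37.

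The members and gene lists were chosen with earlier results of these data known. All members are named, and of each other list up to 3 genes past 1.5-fold with the largest change at 5 FPKM or above in the comparisons at 2.5 μM antagonist, together with 3 genes most like CYR61 and CTGF. Alternatives were pseudocounts of 1 and 0.01, no filter, a filter at 5 FPKM, rescaling to a median of 0, a threshold of 2-fold, the other MDA-MB468 vehicle for GSK805, and every row of a symbol. Computations used scipy 1.17.1, pandas 2.3.3 and numpy 2.4.6 under Python 3.11.15, and figures used matplotlib 3.10.9.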

Additional observations from a re-analysis of the deposited data

Results flagged for a closer look

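Some members moved in opposite directions with XY018 in the HCC70 and MDA-MB468 lines, with both counting intervals off 0. The difference between the lines was not tested, since each condition has 1 library, and the intervals cover counting error only. The share of all genes that meet the same rule was not computed, so these values are not read as particular to the members. At 1.25 μM XY018 the log2 ratios in HCC70 and MDA-MB468 were 0.12 and −0.15 for YAP1, 0.23 and −0.45 for TEAD1, 0.24 and −0.95 for AMOTL2, and 0.53 and −0.90 for AJUBA. At 2.5 μM they were 0.19 and −0.78 for TEAD1, 0.14 and −1.37 for AMOTL2, and 0.55 and −1.28 for AJUBA. With XY018 and ATV together AJUBA was at 0.29 in HCC70 and −1.56 in MDA-MB468. All of the HCC70 values lie inside 1.5-fold.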

How the results depend on the processing

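No paired analysis was possible because each condition has 1 library and no result comes from a test. The counts and medians of the members were recomputed under each alternative, and 170 of these values stayed within 1.5 times the count reported or within the counting error, while 13 did not. Without a filter on low values the members counted as lower in HCC70 became 1 with 1.25 μM XY018, 1 with 2.5 μM XY018, 3 with ATV and 3 with both, since CTGF, ANKRD1 and AXL then entered. At a threshold of 2-fold the members lower were 0 with ATV in HCC70, 3 with 1.25 μM XY018 in MDA-MB468 and 1 with ATV in MDA-MB468, and 0 were higher with GSK805. With a filter at 5 FPKM 1 member was lower with ATV in MDA-MB468, none (0) was higher with GSK805 and the GSK805 median was −1.30. With a pseudocount of 1 that median was −0.65. Against the vehicle of the XY018 and ATV table, across separately normalized tables, 2 members were higher with GSK805, and WWTR1 reversed from −0.66 to 1.08. Rescaling to a median of 0 and a pseudocount of 0.01 moved none of the counts or medians beyond those limits. Of the single log2 ratios, 600 moved by less than their counting error and 17 by more. Depth limits CTGF and ANKRD1 in HCC70, at about 3 fragments or fewer per library.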
